A study of Mus musculus with 41 samples.

Results

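The cyclin L, CLK kinase and SR factor genes are 10 genes of the splicing machinery: Ccnl1, Ccnl2, Clk1, Clk2, Clk3, Clk4, Srsf2, Srsf5, Srsf6 and Srsf7. They were read by gene symbol from the 55536 genes of each count table and by gene name from the peak table. The members were chosen by name, after Ccnl2 had been selected on its measured differences (higher in one assay, lower in the other, with a peak at its start site). The RNA-seq difference, the averaged iSLAM-seq difference and the Ccnl2 peak are therefore given as a description. Calls in those 2 contrasts are counted beside the share of all genes called, and nothing is read from them.

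The 41 libraries came from 3 assays on C57BL/6 mouse testis germ cells and concern RHOX10, an X-linked homeobox transcription factor. RNA-seq was made from cells sorted for a green fluorescent reporter of Oct4, 4 libraries being labelled wild-type and 4 Rhox10-null, and each library pooled 3 animals whose age is not given in the sources used here. iSLAM-seq was made from germline stem cells grown from newborn testes and CUT&Tag, which tags DNA next to a bound antibody, from the same kind of culture. In every iSLAM-seq library the endogenous Rhox10 was knocked down with a short hairpin virus. The Rhox10 group then carried a Rhox10-ERT2-mCherry fusion that responds to 4-hydroxytamoxifen, and the Ctrl group an ERT2-mCherry empty vector, with 2 libraries per vector at 0, 0.5, 1, 2, 4 and 8 h. The CUT&Tag peaks list 3 libraries of knocked-down cells that carried an HA-tagged Rhox10.

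SR factors are RNA-binding proteins with a tail rich in arginine and serine; they bind enhancer sequences in exons and recruit the spliceosome to nearby splice sites. CLK kinases phosphorylate that tail and release SR factors from nuclear speckles, where they are stored. L-type cyclins also sit in speckles, pair with the CDK11 kinases and act on splicing. Many of these genes limit their own output through retained introns or through exons that mark the transcript for decay. Alternative splicing is extensive in the testis, and germ cell development depends on it.

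The promoter sequences are shown because the RHOX10 peaks cover those of 3 members and leave others bare. A RefSeq window on GRCm38.p6, from 250 bases before to 50 after the start, was found for 9 of the 10 genes. The stretches printed run 5′ to 3′ on the gene's strand. Each is the longest run of the upstream bases that lies in no annotated exon. Capitals mark 4 motifs on either strand: the homeobox core TAAT, the TATA element TATAAA, the ETS-type ACTTCCGG, and TGACG, which is part of the cyclic AMP response element and was chosen after the windows had been read. The first line is Ccnl2 (chr4:155812239-155812488, plus strand), the next Srsf2 (chr11:116853095-116853294, minus strand) and the third Srsf6 (chr2:162931258-162931507, plus strand); a RHOX10 peak covers 250, 192 and 250 of their bases. The last pair, Clk4 (chr11:51263047-51263113, plus strand) and Srsf5 (chr12:80945397-80945498, plus strand), have no base under a peak. The Clk4 stretch lies inside the span annotated to that gene (chr11:51261730-51281766).
Ccnl2: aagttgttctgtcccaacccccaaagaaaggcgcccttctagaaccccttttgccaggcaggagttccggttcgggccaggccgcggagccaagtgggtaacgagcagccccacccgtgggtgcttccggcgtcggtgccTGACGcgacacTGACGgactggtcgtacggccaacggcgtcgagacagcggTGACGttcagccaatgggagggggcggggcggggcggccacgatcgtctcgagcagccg
Srsf2: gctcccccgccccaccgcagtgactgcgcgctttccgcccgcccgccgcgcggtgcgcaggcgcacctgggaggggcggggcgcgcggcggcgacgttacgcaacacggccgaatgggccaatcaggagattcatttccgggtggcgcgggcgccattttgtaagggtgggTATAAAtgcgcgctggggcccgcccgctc
Srsf6: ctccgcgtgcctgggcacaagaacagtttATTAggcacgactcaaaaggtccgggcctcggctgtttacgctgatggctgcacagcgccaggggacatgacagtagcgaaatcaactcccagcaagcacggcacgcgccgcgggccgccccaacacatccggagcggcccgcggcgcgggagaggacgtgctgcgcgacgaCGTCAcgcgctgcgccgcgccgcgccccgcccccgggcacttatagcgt
Clk4: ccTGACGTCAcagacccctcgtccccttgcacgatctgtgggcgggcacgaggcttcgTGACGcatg
Srsf5: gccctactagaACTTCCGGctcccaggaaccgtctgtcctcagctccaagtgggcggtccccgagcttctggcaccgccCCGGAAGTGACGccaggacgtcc

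TGACG was found in the whole 300-base windows of 8 of the 9 genes, all but Srsf7. As it was picked after these windows had been read, that count is no test of the motif. TGACG was in 20.8% of all 32851 windows and 30.5% of the 11958 windows with at least the GC content of the member lowest in GC. In the Clk4 stretch 2 of its copies overlap to form TGACGTCA, and in the Srsf5 stretch a copy overlaps a match to ACTTCCGG on the other strand. ACTTCCGG was found in the Srsf5 window alone among the members, and in 3.89% of all windows and 6.65% of the GC-richer ones. TAAT or its reverse complement was in 4 of 9, those of Ccnl1, Clk2, Srsf5 and Srsf6, against 58.0% of all windows and 26.0% of the GC-richer ones. The longer homeobox core TAATTA was in 0 of 9, in 5.29% of all windows and in 0.861% of the GC-richer ones. TATAAA was in 1 of 9, that of Srsf2, in 13.6% of all windows and in 3.86% of the GC-richer ones.

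The authors' peak table annotated a RHOX10 peak to 4 of the 10 genes, Ccnl2, Clk3, Srsf2 and Srsf6; Ccnl2 had been chosen in part for its peak. The same held, within 3 kb of a start, for 27.3% of the genes tested in RNA-seq and 19.8% of those tested in iSLAM-seq. The score is the authors' own value for a peak; over the 5147 peaks it ran from 13.7 to 2801.2 with a median of 127.5. The Srsf2 peak (chr11:116853103-116853558) scored 430.1 and was centred 236 bases before the start. The Clk3 peak (chr9:57764742-57765223) scored 295.1; the authors placed it in an intron 878 bases after the start, and it lay 121 bases from another annotated Clk3 start. The Ccnl2 peak (chr4:155812168-155812656) scored 165.4 at 77 bases before the start, and the Srsf6 peak (chr2:162931103-162931820) scored 95.3 at 47 bases before it. Thus 3 of the 4 peaks scored above the median and Srsf6 below it. For the other 6 genes the nearest peak was assigned to another gene and was 4803 bases from a start for Clk2, 19767 for Clk1, 82799 for Srsf7, 186395 for Srsf5, 288705 for Ccnl1 and 374144 for Clk4.

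The RNA-seq libraries held 6602089 to 8278887 counts and the iSLAM-seq libraries 9419615 to 12645845. The count of Rhox10 was 3 to 10 in wild-type and 4 to 11 in libraries labelled null, so it does not separate the genotypes. In iSLAM-seq it stood at 0.204 to 2.44 CPM (counts scaled to a common library total) in Ctrl and 33.9 to 46.7 in Rhox10 libraries, 0 h included. No pair of replicates agreed within sampling noise; their chi-square per degree of freedom ran from 1.216 to 4.567, except for the 2 Ctrl libraries of 0.5 h at 26.64. Gm42418 alone took 58.03% to 59.37% of the RNA-seq counts in wild-type and 50.98% to 52.74% in libraries labelled null. CPM below are scaled by TMM over the genes tested, so a difference is relative to the bulk of genes.

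The RNA-seq levels per kilobase set the SR factors above the cyclins and kinases. In wild-type libraries Srsf2 stood at 22.5 ± 1.53 CPM per kb (SD, n = 4), Srsf5 at 20 ± 0.80, Srsf6 at 13.5 ± 0.52 and Srsf7 at 12.7 ± 0.77. Clk1 followed at 5.95 ± 0.37, Ccnl1 at 5.26 ± 0.72 and Ccnl2 at 5.19 ± 0.21 CPM per kb. Clk2 at 2.26 ± 0.22, Clk3 at 2.22 ± 0.20 and Clk4 at 2.15 ± 0.20 CPM per kb were the lowest. Ranges of neighbours in this order overlapped except between Srsf5 and Srsf6, Srsf7 and Clk1, and Ccnl2 and Clk2, which leaves 4 tiers. In the libraries labelled null Clk1 rose to 9.10 ± 0.57 CPM per kb and no longer overlapped Ccnl1 at 7.39 ± 0.44, and Clk4 at 3.05 ± 0.09 stood above Clk2 at 2.66 ± 0.26.

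In the RNA-seq comparison both cyclins and 3 of the 4 kinases were higher in the libraries labelled null, while 3 of the 4 SR factors were not called in either direction. In all, 6 of the 10 genes passed the threshold, an adjusted p under 0.05 over all tested genes, all 6 higher, where 37.5% of the 13538 tested genes passed it, 18.6% higher and 18.9% lower. Ccnl2, chosen on this difference, is 1 of the 6. The genotypes did not overlap for 5 of the 10, Ccnl1, Ccnl2, Clk1, Clk4 and Srsf5, against 32.2% of all genes. The median log2 fold change of the 10 genes was 0.24, against 0.00 over all genes. In such bulk samples more RNA per cell and more cells of a type that expresses a gene cannot be told apart.

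Ccnl2 (ENSMUSG00000029068, chr4:155812489-155824543, plus strand) encodes cyclin L2. It had 25.9, 27.3, 28.1 and 28.2 CPM in wild-type libraries and 40.2, 40.1, 41.2 and 40.9 in those labelled null. The groups were far apart and each was narrow, with a log2 fold change of 0.57 (SE 0.06). Its paralog Ccnl1 (ENSMUSG00000027829, chr3:65946151-65958249, minus strand) had 37.8, 27.8, 30.0 and 30.7 CPM in wild-type and 43.2, 46.9, 41.1 and 46.0 in libraries labelled null. Its log2 fold change was 0.48 (SE 0.07), and 1 wild-type library lay closer to the other group than the rest did. Ccnl1 shares 442 exon bases with the antisense gene Gm37305, and whether reads were counted by strand is not given in the sources used here.

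Clk1 (ENSMUSG00000026034, chr1:58410189-58424066, minus strand), whose transcript is known for introns retained in the nucleus, had the largest difference of the 10. Its wild-type libraries had 51.4, 49.4, 44.2 and 48.6 CPM and those labelled null 74.3, 67.8, 79.1 and 74.95. The groups did not overlap, and the log2 fold change was 0.61 (SE 0.06). Clk4 (ENSMUSG00000020385, chr11:51261730-51281766, plus strand), the kinase closest to it in sequence, had 14.1, 11.5, 12.4 and 11.8 CPM against 17.9, 18.1, 17.8 and 17.0. Its log2 fold change was 0.51 (SE 0.09), also without overlap. Clk4 shares 59 exon bases with Gm25082 on the same strand. The other kinases differed less and their genotypes overlapped. Clk3 (ENSMUSG00000032316, chr9:57750624-57765860, minus strand) had 17.6 to 21.2 CPM in wild-type and 19.4 to 24.8 in the other group; its log2 fold change of 0.25 (SE 0.09) passed the threshold. Clk2 (ENSMUSG00000068917, chr3:89164795-89176921, plus strand) had 10.3 to 12.8 against 12.5 to 15.4 CPM, 0.23 (SE 0.10), which did not pass. Clk3 lost its call when null replicate 3 or wild-type replicate 1, 2 or 4 was left out, with log2 fold changes of 0.19, 0.23, 0.22 and 0.21, and Clk2 gained one without null replicate 3, at 0.28. Clk3 also shares 1284 exon bases with Edc3 on the other strand.

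Among the SR factors the differences were small. Srsf5 (ENSMUSG00000021134, chr12:80945504-80950507, plus strand) had 83.8, 80.4, 76.1 and 78.8 CPM in wild-type and 90.2, 91.0, 86.2 and 87.2 in libraries labelled null. The groups did not overlap but nearly touched, and the log2 fold change was 0.15 (SE 0.05). Srsf5 lost its call without wild-type replicate 3 or 4, at 0.12 and 0.14, and Srsf5 and Clk3 were not called with DESeq2. Srsf2 (ENSMUSG00000034120, chr11:116849901-116853094, minus strand) overlapped, with 61.7 to 71.4 CPM in wild-type and 59.1 to 65.3 in libraries labelled null. Its log2 fold change was -0.07 (SE 0.06). Srsf2 shares exon bases with 2 genes on the other strand, Mettl23 and Mfsd11, at most 460 with either. Srsf6 (ENSMUSG00000016921, chr2:162931528-162937121, plus strand) at 61.2 to 66.4 against 66.2 to 67.4 CPM, 0.04 (SE 0.05), and Srsf7 (ENSMUSG00000024097, chr17:80200080-80207307, minus strand) at 41.5 to 48.1 against 44.4 to 47.2 CPM, 0.04 (SE 0.06), overlapped too.

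**Figure D1:**
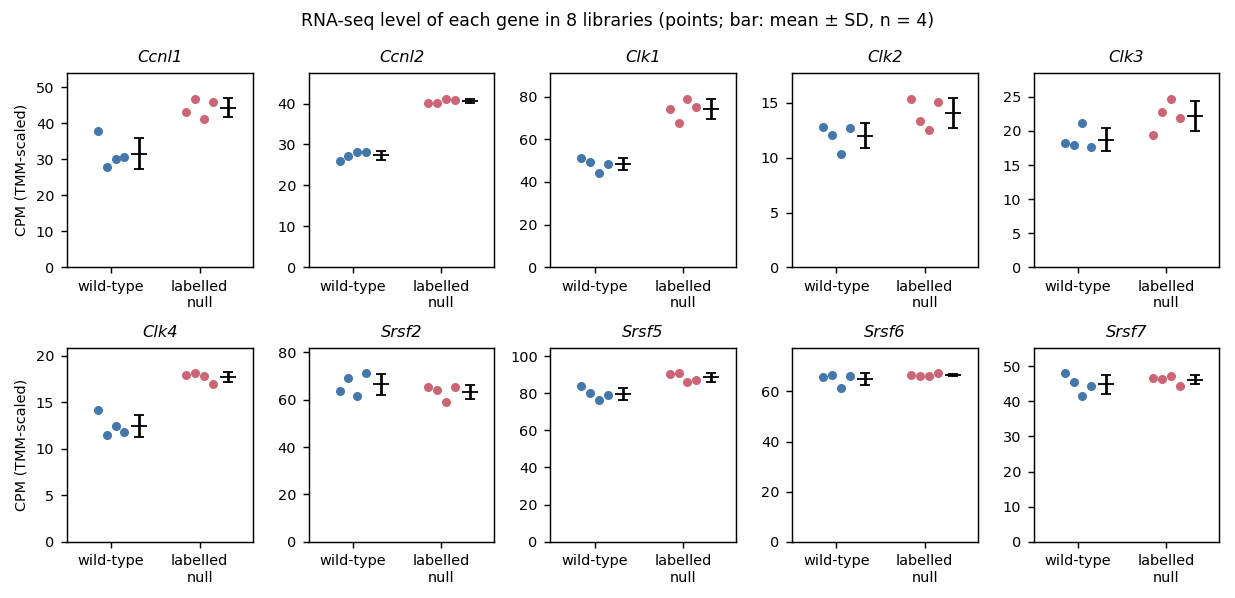
RNA-seq level (CPM, TMM-scaled, axes from 0) of each of the 10 genes in 4 wild-type libraries and 4 libraries labelled null; points are libraries and bars the mean ± SD (n = 4). Ccnl1, Ccnl2, Clk1, Clk4 and Srsf5 show no overlap between the genotypes, while Srsf2, Srsf6 and Srsf7 overlap.

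Markers of other cell types moved with genotype beside these differences. The summed level of 10 germ cell markers was 127.7 to 137.2 CPM in libraries labelled null and 261.8 to 270.1 in wild-type, with 8 of 9 tested lower. All 6 tested erythroid markers were higher, with sums of 78.3 to 86.8 against 1.36 to 4.07 CPM and Slc4a1 at 0 in wild-type. The 6 peritubular and stromal markers were all higher (686.1 to 722.9 against 426.9 to 454.2 CPM), as were 4 of 4 tested Leydig markers (44.7 to 53.3 against 32.04 to 33.8 CPM). Of 6 tested each, 3 endothelial and macrophage markers were higher (44.7 to 49.0 against 31.0 to 36.1 CPM), and 1 Sertoli marker was higher and 1 lower (351.5 to 371.8 against 307.2 to 322.4 CPM). Their part in the differences of the cyclin L, CLK and SR genes was not tested. The scaling also bears on them. With library totals, which raised the median of all genes by 0.35 on the log2 scale and gave 7229 higher against 629 lower genes in place of 2518 against 2553, all 10 genes were called higher, Srsf2 included at 0.28. With scaling to a germline list the median rose by 0.79 (11675 higher, 87 lower), and Srsf2 stood at 0.72.

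The surrounding splicing list holds 43 other genes, 41 of them tested in RNA-seq, of which 26 passed the threshold, 17 higher and 9 lower, with a median log2 fold change of 0.03; over all genes 37.5% passed, 18.6% higher and 18.9% lower. SR and SR-related factors made up 12 of the 26 calls, from 18 tested, 10 higher and 2 lower. DESeq2 called 12 of the 41 list genes and 22.0% of all genes. The list, too, was chosen with earlier results of these data known, so its counts are a description. The largest rises were in Nktr, a cyclophilin with an SR-rich tail (0.37, SE 0.05), Prpf4b, a kinase of the spliceosome (0.36, SE 0.06), and Hnrnph1, which binds G-rich RNA (0.34, SE 0.05). The largest falls were in the SR factor Srsf9 (-0.51, SE 0.09), Snrpa of the U1 particle (-0.50, SE 0.11) and the cold-inducible RNA-binding protein Cirbp (-0.47, SE 0.09). Of the 8 tested kinases and cyclins on the list, 2 were called, both higher.

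In iSLAM-seq, with Rhox10 compared with Ctrl averaged over 0.5 to 8 h, 5 of the 10 genes were lower and 1 was higher, where 37.1% of the 20642 tested genes passed the threshold, 18.4% lower and 18.7% higher. Ccnl2, chosen on this contrast, is 1 of the 5. The called genes were Srsf2 at -0.32 (SE 0.04), Ccnl2 at -0.27 (SE 0.03), Clk2 at -0.23 (SE 0.05), Srsf5 at -0.18 (SE 0.05), Srsf6 at -0.18 (SE 0.04) and, higher, Ccnl1 at 0.13 (SE 0.03). Clk1 at -0.09 (SE 0.05), Clk3 at -0.19 (SE 0.18), Clk4 at -0.11 (SE 0.05) and Srsf7 at -0.06 (SE 0.04) did not pass. The 10 libraries of each vector after 0 h overlapped for all 10 genes, while they did not for 6.54% of all genes. The median of the 10 genes was -0.18, against 0.00 over all genes. At 0 h, before induction, their median was already -0.15, with 7 of the 10 below 0. Averaged over 1 to 8 h only, Ccnl1 stood at 0.06 and was not called, and Clk4 (-0.20) and Srsf7 (-0.09) were called lower. Whether the iSLAM-seq counts take in every read, or just reads that carry T-to-C conversions, is not given in the sources used here, so a level is not read as new RNA.

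Called higher in the RNA-seq libraries labelled null and lower in the averaged iSLAM-seq contrast were 2 of the 10 genes, Ccnl2 and Srsf5, and 3.11% of the 12562 genes tested in both. Ccnl2 was chosen for this pair of differences. Clk1, with the largest RNA-seq difference, was not called in iSLAM-seq, and Srsf2, with the largest iSLAM-seq fall, was not called in RNA-seq.

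**Figure D2:**
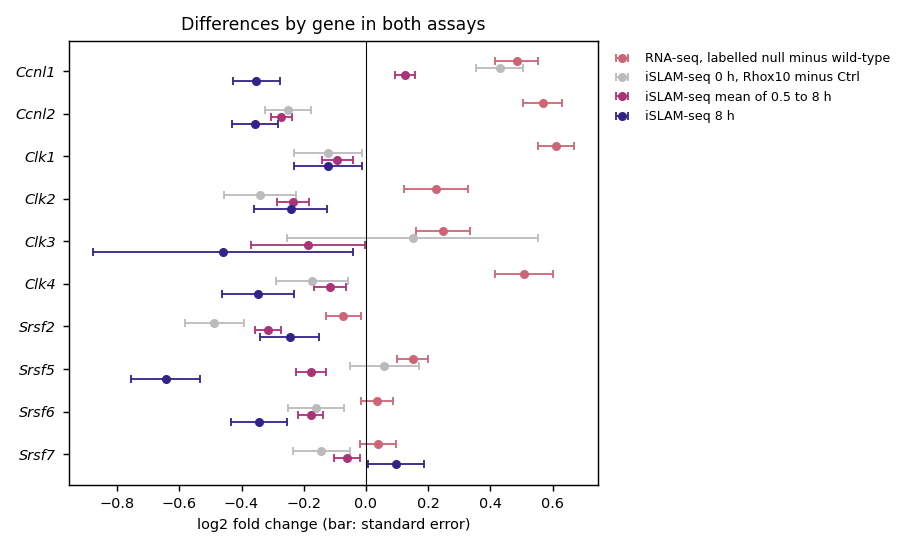
Log2 fold change with its standard error for each gene in RNA-seq (labelled null minus wild-type) and in iSLAM-seq (Rhox10 minus Ctrl at 0 h, averaged over 0.5 to 8 h, and at 8 h). Ccnl2 lies at 0.57 in RNA-seq and between -0.25 and -0.36 in the 3 iSLAM-seq contrasts; Ccnl1 lies at 0.43 at 0 h and -0.35 at 8 h.

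Differences between the vectors were present before induction. At 0 h 3 of the 10 genes were called (10.9% of all genes): Ccnl1 was higher in Rhox10 libraries by 0.43 on the log2 scale (SE 0.08, adjusted p = 0.000479), Ccnl2 stood at -0.25 (SE 0.07, adjusted p = 0.0311) and Srsf2 at -0.49 (SE 0.09, adjusted p = 0.0014). The Ccnl2 call at 0 h was lost when any of the 4 libraries of 0 h or Ctrl 4 h replicate 2 was left out, with adjusted p up to 0.192, or when no low-count filter was used (0.0798). The calls of Ccnl1 and Srsf2 held in all 24 such fits.

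Ccnl1 had the smallest adjusted p of the 10 genes for a change with time in Rhox10 libraries (9.25e-10). The levels of the 2 libraries of a time are written here with a slash between them. Its Rhox10 libraries had 289/283 CPM at 0 h, 327/321 at 0.5 h, 310.0/307 at 1 h, 243/222 at 2 h, 189/186 at 4 h, then 157/158 at 8 h. The 12 Ctrl libraries ran from 195.7 to 262.5 CPM and had 198 and 205 at 8 h. The level in Rhox10 libraries was above that in Ctrl up to 2 h and below it at 4 and 8 h. The libraries did not overlap within a time, but there were only 2 per vector. The differences at 2 h (0.14, SE 0.08, adjusted p = 0.28) and 4 h (-0.07, SE 0.08, adjusted p = 0.651) were not called. From 0 to 8 h it fell by 0.86 on the log2 scale in Rhox10 (SE 0.08), and Ctrl stood at -0.08 (SE 0.08). The vector difference changed from 0 h (adjusted p = 3.87e-05, F-test over the 5 later times), as it did for 2.39% of all genes, and at 8 h it was -0.35 (SE 0.08, adjusted p = 0.00205). The averaged contrast for Ccnl1, higher by 0.13, thus joins times of opposite sign.

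Srsf5 followed a like course without the early excess. Its Rhox10 libraries had 215/204 CPM at 0 h, 210.0/205 at 0.5 h, 219.7/209.9 at 1 h, 212/206 at 2 h, 158/157 at 4 h, then 132/129 at 8 h. Ctrl had 204/198 at 0 h, 213/143 at 0.5 h, 235.0/217 at 1 h, 210.0/221 at 2 h, 198/204 at 4 h, then 211/198 at 8 h. The vectors separated at 4 h, at -0.35 (SE 0.11, adjusted p = 0.0393; 12.2% of all genes were called at that time), and further at 8 h, at -0.64 (SE 0.11, adjusted p = 0.000231). The difference changed from 0 h (adjusted p = 0.0131), but this call was lost when Ctrl 8 h replicate 1 (0.111), Rhox10 8 h replicate 1 (0.0791) or Rhox10 8 h replicate 2 (0.1) was left out. Of the Ctrl pair of 0.5 h, replicate 2 had 143 CPM of Srsf5, below every other Ctrl library. Actb took 0.7303% of its counts, against at most 0.6118% in the other iSLAM-seq libraries. A fit without replicate 1 leaves replicate 2 as the only Ctrl library of 0.5 h. Ccnl1 and Srsf5 were the 2 of 10 genes with a change from 0 h. Without Ctrl 0.5 h replicate 1, one of the pair that stood apart, 4 were called, Clk4 and Srsf7 being added, where 19.5% of all genes were called. Without Ctrl 0.5 h replicate 2 Srsf2 was added (adjusted p = 0.0352), where 7.01% of all genes were called.

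**Figure D3:**
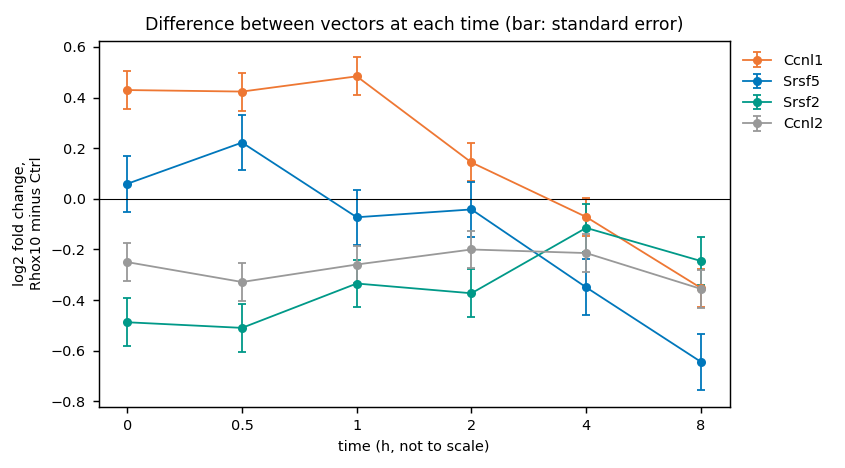
Log2 fold change of Rhox10 over Ctrl at each time for Ccnl1, Srsf5, Srsf2 and Ccnl2, with standard errors from the fit; the time axis is not to scale. Ccnl1 goes from 0.43 at 0 h to -0.35 at 8 h and Srsf5 from 0.06 to -0.64, while Ccnl2 stays between -0.20 and -0.36.

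Ccnl2 stood below Ctrl in Rhox10 libraries at every time. Its Rhox10 libraries had 193/188 CPM at 0 h, 182/194 at 0.5 h, 198/194 at 1 h, 224/220.3 at 2 h, 218/208 at 4 h, then 217.5/198 at 8 h. Ctrl had 225/228 at 0 h, 218/254 at 0.5 h, 235.5/233 at 1 h, 253/258 at 2 h, 251/243.5 at 4 h, then 269/262 at 8 h. The vectors did not overlap within any time, though the Ctrl level at 0.5 h reached down to the Rhox10 level of 2 h. After 0 h the difference lay between -0.20, its value at 2 h, and -0.36, its value at 8 h (SE 0.07 at each time). These times make up the average on which Ccnl2 was chosen, so they are given with no p. Its change from 0 h was not called (adjusted p = 0.882). Without Rhox10 8 h replicate 2 the 8 h value was -0.27.

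Srsf2 began low in Rhox10 libraries. They had 69.5/70.3 CPM at 0 h, 66.3/69.0 at 0.5 h, 75.9/80.1 at 1 h, 72.8/82.2 at 2 h, 96.0/91.9 at 4 h, then 87.2/82.6 at 8 h, while the 12 Ctrl libraries ran from 87.1 to 105.6 CPM. Up to 2 h every Rhox10 library was below every Ctrl library. The difference was called at 0.5 h (-0.51, adjusted p = 0.000706), 1 h (-0.33, adjusted p = 0.0244) and 2 h (-0.37, adjusted p = 0.0114), and stood at -0.11 at 4 h (adjusted p = 0.529) and -0.25 at 8 h (adjusted p = 0.0813). At 2 h Srsf2 was the single gene of the 10 that was called (10.03% of all genes). Its level changed with time in Rhox10 libraries (adjusted p = 0.00898; 0.0662 without Rhox10 4 h replicate 1), and its vector difference was not shown to change from 0 h (adjusted p = 0.448).

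Clk4 changed with time in both vectors. Ctrl libraries had 48.5/44.7 CPM at 0 h, 41.5/35.7 at 0.5 h, 59.2/55.2 at 1 h, 65.1/57.6 at 2 h, 62.2/62.5 at 4 h, then 62.3/58.4 at 8 h. Rhox10 libraries had 39.1/43.6 CPM at 0 h, 42.1/50.6 at 0.5 h, 48.2/50.3 at 1 h, 61.6/63.5 at 2 h, 50.3/50.8 at 4 h, then 47.1/47.8 at 8 h. The Ctrl level stayed at or above 57.6 CPM from 2 h on, and the Rhox10 level was highest at 2 h. The time course was called in Ctrl (adjusted p = 0.00127; 5.74% of all genes) and in Rhox10 (adjusted p = 0.0158; 9.44% of all genes), the latter lost without Rhox10 0 h replicate 1 or either Rhox10 library of 2 h, with adjusted p up to 0.15. The 8 h difference of -0.35 (SE 0.12, adjusted p = 0.0393) was not called with library totals (0.0935) or no filter (0.157). It was also lost in 22 of 24 fits that left out 1 library, where it ran from -0.38 to -0.27. Those fits applied the filter anew and tested more genes, 22252 without Ctrl 1 h replicate 1 against 20642 with every library. Without that library of another time the value was -0.33. The cause of the lost calls was not tested.

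The remaining members were called at 1 time or at none. Srsf6 ran from 160.4 to 206.4 CPM in Rhox10 and from 177.8 to 216.8 in Ctrl libraries, and at 8 h, with 167 and 160.4 against 207 and 208, its difference was -0.34 (SE 0.09, adjusted p = 0.00988); leaving out any library of 8 h ended that call, with adjusted p up to 0.122. Clk2 ran from 61.9 to 78.6 CPM in Rhox10 and 72.3 to 98.8 in Ctrl, and its difference was below 0 at every time. It was called at 0.5 h (-0.35, adjusted p = 0.0475), where the Ctrl pair that stood apart had 75.8 and 98.8 CPM against 67.9 and 69.4 in Rhox10. Unlike those of 0 and 8 h, the calls of all members at 0.5, 1, 2 and 4 h were not refitted without single libraries. Clk1 at 60.7 to 83.5 CPM in Rhox10 and 63.6 to 89.4 in Ctrl, and Srsf7 at 212.8 to 282.5 and 218.0 to 291.5, were called at no time. Clk3 had 26 to 70 counts per iSLAM-seq library, and its standard errors of 0.39 to 0.42 at single times leave differences of the size seen for the other genes undetectable at this depth.

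At 8 h 5 of the 10 genes were lower and 0 higher, where 8.79% of all genes were lower. They were Ccnl1, Clk4, Srsf5, Srsf6 and Ccnl2, the last chosen on an average that holds this time; it is also counted at 0.5 and 1 h. The count ran from 2 to 6 when single libraries were left out, with 2 without Rhox10 8 h replicate 2 and 3 without each of the others of 8 h in turn. In those 4 fits 8.90% to 9.18% of all genes were called at 8 h in either direction, against 16.8% with every library. The earlier times gave 4 calls at 0.5 h (14.5% of all genes), 3 at 1 h (9.91%) and 1 each at 2 and 4 h. Of the Ctrl libraries of 0.5 h, a fit without replicate 1 keeps only replicate 2, the one with Actb at 0.7303% of its counts. Within a vector, the time course was called for Ccnl1, Clk4, Srsf2 and Srsf5 in Rhox10 and for Clk4 in Ctrl. Without Ctrl 0.5 h replicate 1 these counts were 8 and 7, while the shares of all genes called rose to 20.4% and 27.4%. Without Ctrl 0.5 h replicate 2 they were 8 and 3, with 20.6% and 10.9% of all genes.

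**Figure D4:**
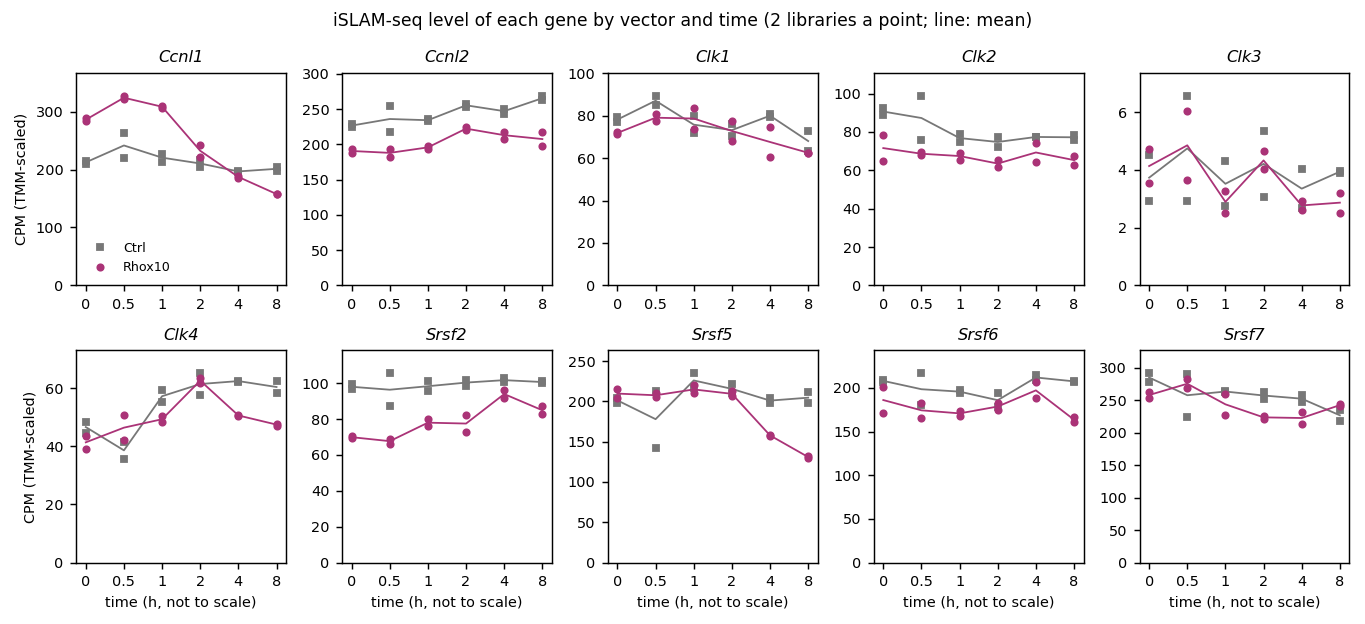
iSLAM-seq level (CPM, TMM-scaled, axes from 0) of each gene by time for Ctrl (squares) and Rhox10 (circles), 2 libraries per point in time, with lines through the means; the time axis is not to scale. Ccnl1 and Srsf5 fall in Rhox10 libraries to 157 and 129 CPM at 8 h, and the 2 Ctrl libraries of 0.5 h lie far apart for Srsf5.

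Of the 43 other splicing genes 42 were tested in iSLAM-seq, and 23 were called in the average over 0.5 to 8 h, 3 higher and 20 lower, with a median of -0.11; over all genes 37.1% were called, 18.7% higher and 18.4% lower. The largest falls were in Cirbp (-0.51, SE 0.04), Nktr (-0.43, SE 0.03) and Cdk12, which phosphorylates the tail of RNA polymerase II (-0.39, SE 0.03). The rises were in the SR factor Srsf12 (0.44, SE 0.17), Hnrnph1 (0.26, SE 0.06) and Snrnp70 of the U1 particle (0.20, SE 0.06). At 8 h 16 were lower and 0 higher, where 8.79% of all genes were lower. Before induction, at 0 h, 8 were already lower and 0 higher, where 10.9% of all genes were called. The median of the list at 0 h was -0.13. Cirbp (-0.44) and Cdk12 (-0.27) were among those 8, and Nktr stood at -0.21 without a call. A change from 0 h was called for 2.39% of all genes and for 2 of the 42, Nktr (adjusted p = 0.00808) and Cdk12 (adjusted p = 0.0404). Of the 41 list genes tested in both assays 10 were called higher in RNA-seq and lower here, Nktr among them, beside 3.11% of all genes. The list was chosen with earlier results of these data known, so these counts are a description and no test. Cell type markers differed between the vectors as well. The germ cell sum was 1740 to 2531 CPM in Ctrl and 1841 to 2139 in Rhox10, with 7 of 10 lower, and the stromal sum was 793 to 1369 and 878 to 1687 CPM, with 3 of 6 higher and 1 lower. Endothelial and macrophage sums were 50.3 to 67.8 CPM in Ctrl and 36.7 to 53.1 in Rhox10, with 4 of 5 tested lower, and Sertoli sums 185 to 449 and 237 to 557 CPM, with 1 of 4 higher and 2 lower. Erythroid sums were 0.296 to 2.31 and 0.202 to 1.61 CPM, with 1 of 2 lower and Hbb-bt at 0 in both vectors. Leydig sums were 8.96 to 17.1 and 8.04 to 14.1 CPM, with 0 of 2 called and Hsd3b1 and Insl3 at 0. Their part in the results was not tested.

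The genes whose log2 CPM was most like that of Ccnl2 across the 8 RNA-seq libraries were Gm21887 (r = 0.996), Flna, Fosb, Lama2 and Nrp1 (r = 0.992), and for Clk1 they were Lsp1 (r = 0.997), Pcsk5, Ahnak, Kmt2e and Col5a2 (r = 0.986), of 5298 genes with at least 10 CPM. These libraries form 2 genotype groups and share their scaling, so r here mostly orders genes by how cleanly the groups separate. Across the 24 iSLAM-seq libraries the genes most like Ccnl2 were Ubn1 (r = 0.950), Epb41l4b, Cirbp, Bok and Poldip3 (r = 0.932), and those most like Clk1 were Brd7 (r = 0.848), Vcl, Spink2, Khdrbs1 and Supt3 (r = 0.778), of 10156 genes. None of the 10 nearest genes in RNA-seq was among the 10 in iSLAM-seq.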

How the data were processed

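The deposited gene tables hold raw counts per gene and library, per the file headers. The submitters' processing notes name STAR 2.5.2b, Subread, featureCounts and DESeq2 for RNA-seq on GRCm38, limma 3.42.2 for iSLAM-seq, and Bowtie2 2.2.5, SAMtools and HOMER for CUT&Tag on mm10. The iSLAM-seq aligner and read type and the strand setting of the counts are not given in the sources used here. Per the labels' protocols the RNA-seq kit was directional and the iSLAM-seq kit read 3′ ends, so levels per kilobase were used for RNA-seq alone. The deposited peak table gives the authors' score per merged peak. Its control libraries were not used here. All 55536 gene identifiers matched GENCODE M21, and the tables held 0 columns of other samples.

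Differences in counts were tested in R 4.3.3 by edgeR 4.0.16 (quasi-likelihood F-test; limma 3.58.1), with TMM scaling, filterByExpr and Benjamini-Hochberg adjustment over all tested genes. A call is an adjusted p under 0.05. RNA-seq was fitted with genotype, and iSLAM-seq with 12 group means over 24 libraries, so that groups of 2 share 1 estimate of spread. Standard errors (SE) were derived from each log2 fold change and its F statistic. All 10 members passed the filter in both assays. The code of the fits was run on simulated data with 200 genes changed 2-fold and the same spread for every gene. That run does not bear on the smaller differences given here. Where nothing says that libraries came from separate cultures, p-values measure the spread between these libraries.

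The members, the list of 43 further splicing genes and the marker lists were chosen with earlier results of these data known. Named by rule were all members, the 3 list genes with the largest called change in each direction and assay, and the 5 genes most like Ccnl2 and Clk1 (Pearson r of log2 CPM). Alternatives were DESeq2 1.42.0, its size factors, library totals, a germline list for scaling, removal of genes above 1% of a library, no filter, a replicate block, a fold threshold, other peak sets and leaving out each library. Each fit without 1 library applied the filter anew and tested more genes. A call lost there can come from the filter as well as from the library, and which of them was not tested. Time courses without the 0.5 h libraries were added after seeing the data.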

Additional observations from a re-analysis of the deposited data

Results flagged for a closer look

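In the RNA-seq wild-type group, 1 library stood apart from the other 3 for 2 genes. Replicate 3 was the highest for Clk3, at 21.2 CPM against 17.6, 18.0 and 18.2, a gap of 0.842 of the whole range. The same replicate was the lowest for Srsf6, at 61.2 CPM against 65.6, 66.3 and 66.4, a gap of 0.839. In 20 groups of 4 examined, about 1 is expected by chance.

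The difference between Rhox10 and Ctrl changed from its value at 0 h for Ccnl1 (adjusted p = 3.87e-05, edgeR) and for Srsf5 (adjusted p = 0.0131). For Ccnl1 the difference moved from 0.43 to -0.35 on the log2 scale between 0 and 8 h, a change of -0.78 (SE 0.11), and for Srsf5 from 0.06 to -0.64, a change of -0.70 (SE 0.16).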

How the results depend on the processing

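In RNA-seq, 10 members were called with library totals, where 7229 of 13538 genes were called higher and 629 lower. With germline scaling 10 were called, where 11675 of all genes were higher and 87 lower. DESeq2 left 4, where 22.0% of all genes were called. No member or list gene was called with a 2-fold or larger difference (1 on the log2 scale), so that threshold left 0 members and 0 list genes in RNA-seq and 0 and 0 in the iSLAM-seq average. Of the splicing list DESeq2 called 12 and germline scaling 41, beside those same calls over all genes. Srsf2 reversed to 0.28 with library totals and to 0.72 with germline scaling. Without the 0.5 h libraries, a choice made after seeing the data, the time course was called for 3 members in Ctrl and 7 in Rhox10, where 10.8% and 20.9% of all genes were called. Members with a peak were 3 among peaks scoring at least the median.

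Leaving out 1 library gave 4 to 6 members and 20 to 24 list genes in RNA-seq, 6 to 8 members and 21 to 28 list genes in the iSLAM-seq average, 2 to 4 members at 0 h, 2 to 6 at 8 h, 1 to 4 for the change from 0 h, 1 to 7 for the Ctrl and 3 to 8 for the Rhox10 time course. The values ran from -0.0001 to 0.0382 for Srsf6 and from -0.0023 to 0.0663 for Srsf7 in RNA-seq, lowest without wild-type replicate 3, and from -0.13 to 0.50 for Clk3 at 0 h, below 0 also without Rhox10 0 h replicate 1 (-0.08). Clk3 rests on the fewest iSLAM-seq counts. Over all genes, RNA-seq without wild-type replicate 2, with the fewest list calls, gave 2170 higher and 2369 lower of 13904. Without null replicate 4, with the most list calls, it gave 2332 higher and 2355 lower of 13814.

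Deviations of same-numbered libraries had correlations of -0.0188 to 0.0221 in RNA-seq and -0.1063 to 0.0917 in iSLAM-seq. Taken over all tested genes, with sampling noise in each, such values cannot settle whether same-numbered libraries shared a culture or batch. A replicate block called 2500 genes higher and 2566 lower of 13538 in RNA-seq, and 3879 and 3808 of 20642 in the iSLAM-seq average. With the replicate block 6 members and 26 list genes were called in RNA-seq, 6 and 24 in the iSLAM-seq average, 4 members at 0 h, 5 at 8 h, 2 for the change from 0 h, and 1 and 4 for the Ctrl and Rhox10 time courses; the added call at 0 h was Clk2 (-0.35, adjusted p = 0.0448, against 0.0605 without the block). The cause of these changes was not tested.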
